A study of Arabidopsis thaliana with 12 samples.

Results

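A set of 148 probe sets was higher in young rosette leaves of the cuticular mutant fdh than in any of the other 3 genotypes measured, wild type, bdg and lcr. Some members also lay above wild type in the other mutants, by 1 log2 unit or more in lcr for 25 of them and in bdg for 4. The 148 were chosen on their values, out of 22746 probe sets of the ATH1 array, an oligonucleotide array on which a probe set is a group of short probes that reads 1 transcript or a few. A member had a mean over the fdh arrays at least 1 log2 unit above each of the wild-type, bdg and lcr means, and all 3 fdh arrays above all 9 other arrays. Both criteria were met by 167 probe sets, of which 13 were set aside as genes of named families (QQS, STP13, PAD3, GH3, HIS1-3, UGT, CYP, ABC, WRKY, NAC, ERF and MYB) and 7 because bdg and lcr both lay 1.5 or more above wild type, with 1 falling under both. The distances of fdh from the other genotypes are therefore a description of how the members were chosen. Calls made on these distances are given further below as counts only, and nothing is concluded from them.

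All plants were Arabidopsis thaliana grown on soil for 5.5 weeks under short days, and each array read total RNA from young rosette leaves pooled from 15 plants. Wild type was Columbia-0. The bdg plants carried the bdg-2 allele, a small deletion in the first exon of BODYGUARD. The fdh plants carried fdh-3940, a small insertion in the first exon of FIDDLEHEAD, and the lcr plants carried lcr-3P77, an insertion in the 5′ untranslated region of LACERATA. Each mutant was represented by 1 allele and each genotype by 3 arrays, described as biological replicates. Values are on the log2 scale, on which a difference of 1 is a 2-fold difference in signal, and the median of all probe sets lay between 4.57 and 4.72 on every array.

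FIDDLEHEAD encodes a protein related to the beta-ketoacyl-CoA synthases that lengthen fatty acids, LACERATA a cytochrome P450 of the fatty acid hydroxylase family, and BODYGUARD a protein of the alpha/beta hydrolase fold. All of them act in the epidermis, and the loss of any of them leaves a leaky cuticle and fused organs. Leaves that sense wounding or a pathogen are known to raise separate gene programmes under salicylic acid, jasmonate and ethylene, and senescing or carbon-starved leaves raise genes that move nitrogen into asparagine and glutamine for export. No probe set could be given the name FDH, BDG or LCR here, so the mutated genes themselves could not serve as a check of the labels.

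A single gene name could be given to 95 of the 148 members, 27 of them by a symbol and 68 by their locus alone. Another 52 had no name here and 1 had several genes. Since an unnamed probe set may belong to a family that was set aside, the 148 is an upper count under the rule. The 95 named members fell on 95 different loci, and 7 of the 148 were of a probe set type that can read several transcripts. The members spanned most of the range of the array. Their means ran from 2.11 to 10.64 in wild type, with a median of 4.93, and from 3.61 to 13.07 in fdh, with a median of 6.89. In 70 members the wild-type mean lay below 4.57, the lowest median of any array, and in 19 of these the fdh mean did too, so that many members went from a signal in the dim part of the array to a middling one. The RNA came from whole leaves, in which more cells of a type and more RNA per cell cannot be told apart. Against wild type the fdh mean was higher by 1.01 to 3.96, with a median of 1.72. The margin, by which the fdh mean exceeded the highest of the other genotype means, ran from 1.01 to 3.0 with a median of 1.35. The gap between the lowest fdh array and the highest of the 9 others was narrower, with a median of 0.43 and a range from 0.02 to 1.67.

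**Figure D1:**
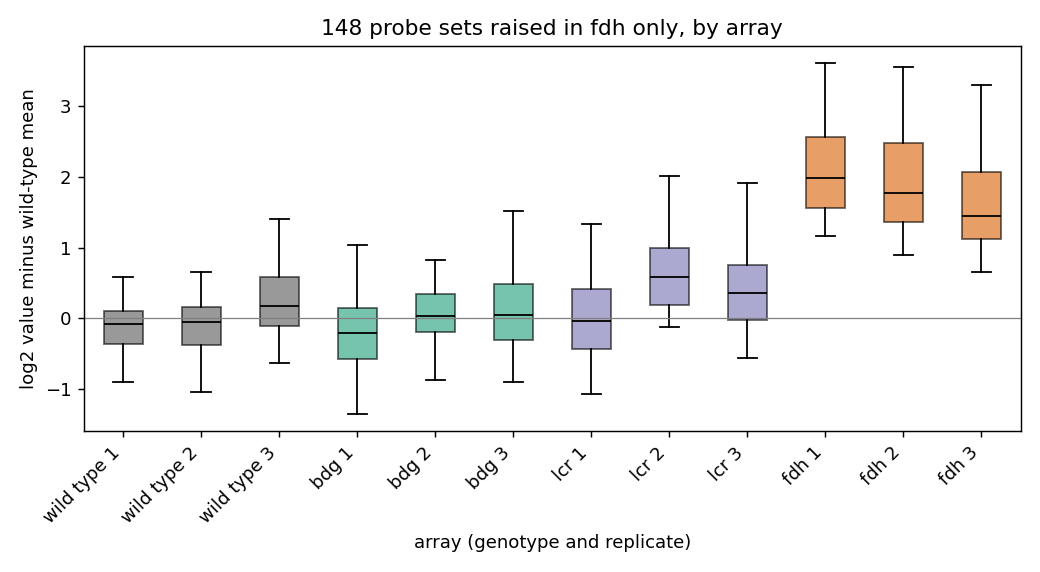
Log2 value of the 148 members minus each member's wild-type mean (y axis), for the 12 arrays (x axis). Boxes span the quartiles, the line is the median and whiskers reach the percentiles 5 and 95. The fdh medians lie between 1.45 and 1.98, those of bdg between -0.20 and 0.05, and those of lcr between -0.03 and 0.59.

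The fdh arrays were not equally high. Relative to the wild-type mean, the median of the members was 1.98 in fdh 1, 1.78 in fdh 2 and 1.45 in fdh 3, and fdh 3 was the lowest fdh array in 96 of the 148 members. Among the other arrays the medians were -0.08, -0.05 and 0.17 in wild type, -0.20, 0.03 and 0.05 in bdg, and -0.03, 0.59 and 0.35 in lcr. The arrays wild type 2, bdg 1 and lcr 1 also stood apart in the control probe sets for the ends of the actin transcript, where the 3′ signal exceeded the 5′ signal by 5.98, 6.07 and 6.27, against 4.64 to 5.11 on the other 9 arrays. A wide difference of this kind accompanies RNA or cDNA of shorter length. Array lcr 1 was the lowest lcr array in 97 members and bdg 1 the lowest bdg array in 77. Wild type 2, in contrast, was the lowest wild-type array in only 46 members, fewer than wild type 1 with 65. Such counts were not made over all probe sets. The part of the actin difference in the members' values was not tested. When the same rule was applied without these 3 arrays it took 135 probe sets, of which 108 were among the 148.

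Of the proteins that leaf cells send to the apoplast and the wall, 5 members could be described, with a median margin of 2.46. Roles were assigned by hand, 118 members had none, and the rule had used the margin. The role groups are therefore not compared by it. BGL2 (At3g57260), also known as PR2, is a secreted beta-1,3-glucanase and a standard marker of the salicylic acid response. It was measured at 3.79, 3.24 and 6.49 in wild type, 5.96, 5.31 and 5.39 in bdg, 3.70, 6.46 and 6.48 in lcr, and 8.23, 7.93 and 9.0 in fdh. Wild type 3 was the highest of the 9 other arrays, so these genotypes overlapped among themselves, while the lowest fdh array stood 1.43 above them. BG3 (At3g57240), a related beta-1,3-glucanase whose gene lies close to BGL2 with 2 annotated genes between them in the TAIR10.1 assembly, had 4.09, 4.42 and 5.15 in wild type and 4.11, 4.05 and 4.25 in bdg. It reached 4.08, 5.53 and 6.18 in lcr and 8.15, 7.82 and 7.62 in fdh. Both glucanases thus had lcr 1 at the low end of the wild-type values and the other lcr arrays above all bdg arrays.

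AT5G10760, known as AED1, is an apoplastic protein of the aspartyl protease family induced through EDS1 in systemic immunity. Its values were 5.81, 5.22 and 6.85 in wild type, 5.91, 6.71 and 6.34 in bdg, 4.94, 6.69 and 7.44 in lcr, and 9.01, 8.51 and 8.93 in fdh. The fdh arrays were close together (mean 8.82) and well clear of a broad band formed by all other arrays. AGP5 (At1g35230), an arabinogalactan protein of the cell surface, had an fdh mean of 6.5 ± 0.67 (SD, n = 3) and means of 4.19, 4.72 and 4.81 in wild type, bdg and lcr. GATL2 (At3g50760), a member of the galacturonosyltransferase-like family, was nearer the limits of the rule, with a margin of 1.19.

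Among the members given a role by hand, 8 were placed in signalling and protein turnover, with a median margin of 1.42. The sizes of such groups depend on which members were given a role. CML37 (At5g42380), a calmodulin-like calcium sensor that responds to wounding and herbivory, had 6.07, 6.29 and 4.24 in fdh. Its other values were 2.48, 2.93 and 2.64 in wild type, 3.03, 3.65 and 2.56 in bdg, and 3.36, 4.03 and 2.94 in lcr. One fdh array, fdh 3, was thus only 0.21 above lcr 2, while the others were more than 2 units above it. AT1G80440, a Kelch-repeat F-box protein that directs degradation of phenylalanine ammonia-lyase and of cytokinin response regulators (KMD1, KFB20), had 6.16, 6.78 and 5.82 in fdh against 3.19 to 3.91 in wild type. In lcr it was 3.93, 4.84 and 4.13, above all wild-type and bdg arrays.

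CRK7 (At4g23150), a cysteine-rich receptor-like kinase, was dim throughout, at 2.73 to 3.02 in wild type and 4.61, 4.77 and 4.75 in fdh, the latter reaching about the median of the array. PUB24 (At3g11840), a U-box ubiquitin ligase that dampens immune signalling, was likewise below 3.0 on all 9 other arrays and had 4.65, 4.23 and 3.70 in fdh. HR4 (At3g50480), a homolog of the powdery mildew resistance protein RPW8, had 8.34, 8.05 and 8.00 in wild type and 7.04, 8.40 and 8.14 in bdg. It had 9.04, 9.47 and 9.16 in lcr and 10.98, 10.67 and 10.07 in fdh, so that the genotypes formed 3 separate levels, wild type with bdg, then lcr, then fdh.

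J11 (At4g36040), a small chloroplast DnaJ chaperone, behaved differently from these. It varied widely outside fdh, with 6.41, 6.83 and 9.35 in wild type, 6.12, 7.13 and 9.30 in bdg and 7.66, 10.12 and 9.72 in lcr, but it was nearly constant in fdh, with 10.50, 10.63 and 10.59. GID1B (At3g63010), a gibberellin receptor, was the member with the narrowest gap, since fdh 3 at 5.20 was only 0.02 above lcr 3. GAMMA-VPE (At4g32940), a vacuolar processing protease that takes part in cell death and senescence, had a margin of 1.04, and its bdg and lcr means lay 0.74 and 0.33 below wild type.

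**Figure D2:**
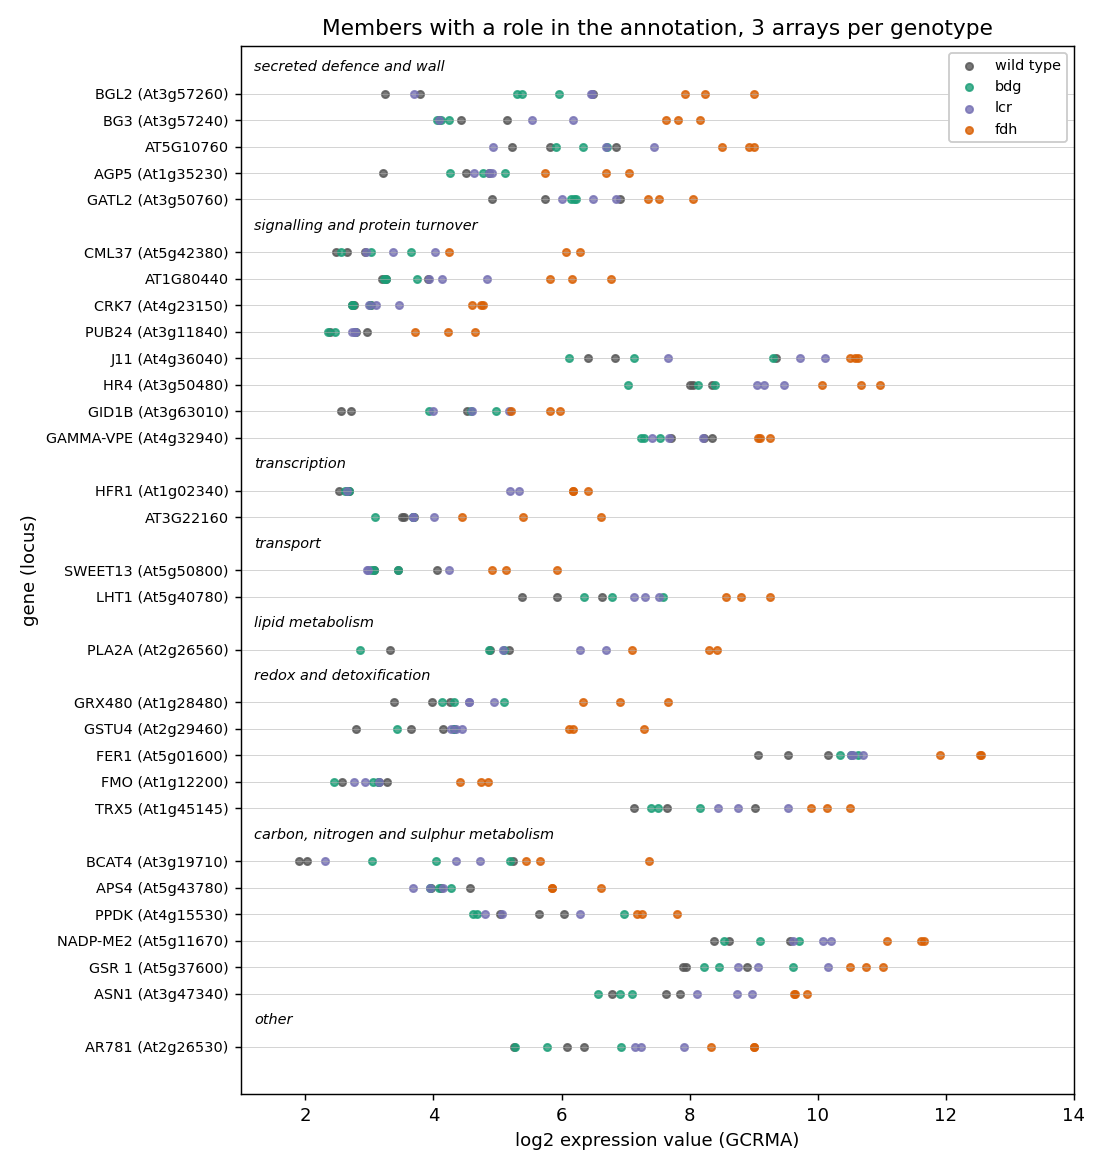
Log2 values (x axis) of the 30 members whose role is described, grouped by role (y axis), with 1 point for each of the 3 arrays of wild type, bdg, lcr and fdh. In each row the fdh points lie to the right of all others, and HFR1 shows 2 lcr arrays apart from the third.

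There were 2 described regulators of transcription. HFR1 (At1g02340), a basic helix-loop-helix factor of shade and light signalling, was at 2.53 to 2.68 in all wild-type arrays and 2.63 to 2.68 in all bdg arrays. In lcr it was 2.65, 5.20 and 5.34, and in fdh 6.19, 6.18 and 6.41. The array lcr 1 was thus at the level of wild type, while lcr 2 and lcr 3 were about 1 unit below fdh. AT3G22160, the VQ-motif protein JAV1 that restrains jasmonate-dependent defence, had 6.61, 5.39 and 4.44 in fdh and lay between 3.09 and 4.01 on all other arrays, so its fdh arrays differed more from each other than any of the others did.

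Transport was represented by SWEET13 (At5g50800), a sucrose exporter of the plasma membrane, and LHT1 (At5g40780), an amino acid importer. SWEET13 had 5.93, 5.14 and 4.92 in fdh, and the highest other values were 4.24 in lcr 2 and 4.05 in wild type 3. LHT1 had 5.37, 6.63 and 5.93 in wild type, 7.59, 6.34 and 6.79 in bdg, 7.52, 7.13 and 7.30 in lcr, and 9.26, 8.80 and 8.56 in fdh. For LHT1 the bdg and lcr means were above wild type by 0.93 and 1.34, whereas for SWEET13 both were slightly below it.

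PLA2A (At2g26560), a patatin-like acyl hydrolase that releases fatty acids from membrane lipids and is induced by pathogens, was the only described member of lipid metabolism. It had 4.88, 5.18 and 3.32 in wild type, 4.87, 5.10 and 2.85 in bdg, 6.69, 6.29 and 5.09 in lcr, and 8.30, 8.43 and 7.11 in fdh. Replicate 3 was the lowest array in every genotype. AR781 (At2g26530), for which no role is given here, lies 2 genes away from PLA2A and had a similar order of genotypes, with means of 5.89, 6.0, 7.43 and 8.78 in wild type, bdg, lcr and fdh.

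Among the 5 members of redox and detoxification, all but TRX5 had gaps of more than 1 to the other arrays. GSTU4 (At2g29460), a glutathione transferase, had the largest gap of all members, 1.67. It was measured at 2.80, 3.65 and 4.16 in wild type, 4.31, 4.32 and 3.43 in bdg, 4.36, 4.44 and 4.27 in lcr, and 6.11, 6.17 and 7.28 in fdh. GRX480 (At1g28480), a glutaredoxin that links salicylic acid to the repression of jasmonate genes, had 7.65, 6.91 and 6.33 in fdh and 3.39 to 5.10 on the other arrays. FER1 (At5g01600), the iron-storing ferritin of the chloroplast, was the brightest of them, at 9.07, 9.53 and 10.16 in wild type, 10.63, 10.35 and 10.52 in bdg, 10.55, 10.52 and 10.71 in lcr, and 12.54, 12.54 and 11.90 in fdh. All bdg and lcr arrays of FER1 were therefore above all wild-type arrays, and all fdh arrays above those. FMO (At1g12200), a flavin-containing monooxygenase, showed no such step, with means of 2.99, 2.88 and 2.95 in wild type, bdg and lcr and 4.67 ± 0.23 (SD, n = 3) in fdh. TRX5 (At1g45145), a cytosolic thioredoxin h, had a margin of 1.27 and a gap of 0.35, below the median gap of the members.

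The 6 members of carbon, nitrogen and sulphur metabolism included enzymes that place ammonium into the transport amino acids asparagine and glutamine. ASN1 (At3g47340), the dark-inducible asparagine synthetase, had 7.64, 7.85 and 6.79 in wild type, 7.10, 6.56 and 6.91 in bdg, 8.97, 8.74 and 8.11 in lcr, and 9.63, 9.65 and 9.84 in fdh. It is another case of separate levels, since every lcr array was above every wild-type and bdg array and below every fdh array. GSR 1 (At5g37600), a cytosolic glutamine synthetase, had means of 8.24, 8.76, 9.33 and 10.76 in wild type, bdg, lcr and fdh, and lcr 3 at 10.16 came within 0.34 of the lowest fdh array.

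PPDK (At4g15530), pyruvate orthophosphate dikinase, which serves nitrogen remobilization in old leaves, had 7.81, 7.26 and 7.17 in fdh and a highest other value of 6.98 in bdg 1. NADP-ME2 (At5g11670), a cytosolic malic enzyme, was bright in all genotypes, with means of 8.86, 9.11, 9.97 and 11.45 in wild type, bdg, lcr and fdh. APS4 (At5g43780), an ATP sulfurylase of sulphate assimilation, was flat outside fdh, with 3.68 to 4.56 on the 9 other arrays, and had 6.61, 5.86 and 5.85 in fdh. BCAT4 (At3g19710), an aminotransferase that starts the chain elongation of methionine for glucosinolates, was the opposite, with 1.90, 2.03 and 5.25 in wild type and 5.67, 5.44 and 7.36 in fdh. Wild type 3 of BCAT4 lay only 0.20 below the lowest fdh array, although its margin of 2.06 was among the 20 widest.

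Members with a locus but no described role made up several of the widest margins. The widest of all belonged to AT4G27654, at 3.08, 3.66 and 4.43 in wild type, 3.01, 3.12 and 3.08 in bdg, 3.33, 4.73 and 3.53 in lcr, and 7.64, 7.63 and 5.31 in fdh. Its neighbours on both sides in the TAIR10.1 gene order, AT4G27652 and AT4G27657, were members too, with margins of 2.12 and 1.74. In all 3 of these neighbouring genes fdh 3 was the lowest fdh array, at 8.39 for AT4G27652 and 7.01 for AT4G27657. AT2G36220 had the largest difference between fdh and wild type of any member, 3.96, from 3.32, 3.74 and 3.38 in wild type to 8.02, 7.74 and 6.57 in fdh.

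Among the other members of this kind, AT1G76960 had a margin of 2.80, but its wild type 3 reached 5.10, well above 2.27 and 2.13 in the other wild-type arrays and not far from 5.63 in fdh 2. AT5G18470, AT1G26420, AT5G39670, AT1G65690 and AT1G56220 had margins of 2.29, 2.28, 2.20, 1.98 and 1.90. AT1G65500 and AT1G57630 stood out by their gaps, 1.34 and 1.18, rather than their margins. AT1G72900 and AT1G72940 lie 5 genes apart and had margins of 1.49 and 1.28, and in both the bdg and lcr means were below wild type.

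The thresholds of the rule cut through a continuous range of values. AT1G06620 and AT4G24290 were just inside the margin, at 1.02 each, and AT1G07750 and AT1G13990 just outside it, at 0.995 and 0.983. By the gap, GID1B and AT3G53980 were just inside, each at 0.02. PR4 (At3g04720), a chitin-binding defence protein, was just outside with a gap of -0.0023 in spite of a margin of 2.5, and MAKR6 (At5g52900) was outside with -0.0083. AT1G65500 and GID1B came closest to the limit on bdg and lcr from within, with bdg 1.34 and 1.23 above wild type, and WR3 (At5g50200) and AT1G23390 lay beyond it, with bdg 1.63 and 1.74 above wild type.

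The rule was also applied to the 8 arrays of 2 replicate numbers. The chosen probe sets were then read in the 4 arrays of the number left out, here called unused. These 4 arrays gave no values to that step, but the rule itself was set with earlier results of these data known. The shares below therefore describe these arrays and cannot show how the rule would do in independent ones. With number 1 left out, 119 probe sets were chosen, and in 116 of them (97.5%) fdh 1 was the highest of the 4 unused arrays, against 4149 of all 22746. With number 2 left out, 260 were chosen and fdh 2 was highest in 238 (91.5%), against 4777 of all. With number 3 left out, 432 were chosen and fdh 3 was highest in 348 (80.6%), against 4218 of all. Of the probe sets chosen in this way 92, 128 and 136 were among the 148, so that with number 3 left out most were not members, and the values describe the rule rather than the members alone. The fdh array tended to be highest in each unused set of arrays, although by unequal amounts, since the median distance to the highest of the other unused arrays was 1.61, 0.95 and 0.44. A distance of 1 or more was kept by 75.6%, 44.6% and 19.7% of the chosen probe sets, against 2.69%, 1.42% and 1.08% of all.

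**Figure D3:**
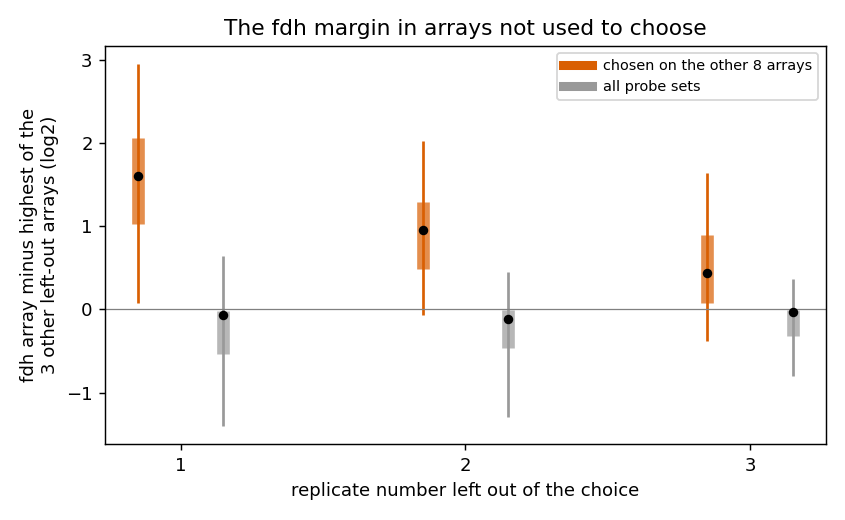
Distance in log2 units from the fdh array to the highest of the 3 other arrays (y axis) for the replicate number left out of the choice (x axis). Points are medians, thick bars quartiles and thin bars the percentiles 5 to 95, for the probe sets chosen on the other 8 arrays and for all 22746. The medians of the chosen probe sets fall from 1.61 to 0.95 and 0.44 with numbers 1, 2 and 3 left out, against -0.07, -0.11 and -0.04 for all.

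The difference between lcr and bdg was the only comparison of 2 genotypes that the rule did not use directly. It is not free of the choice, since the limit left out 7 probe sets high in both and kept those high in only 1 of them. In limma, fitted to all 12 arrays with Benjamini-Hochberg adjustment over all probe sets, 0 of the 148 members passed an adjusted p of 0.05 between lcr and bdg, against 0.0044% of all probe sets, and the lowest adjusted p of a member was 0.906. At an unadjusted p under 0.05 there were 21 members (14.2%), against 3.1% of all probe sets, of which 20 were higher in lcr and 1 lower. Over the members the median of lcr minus bdg was 0.26, against 0.01 over all probe sets, and 119 of 148 (80.4%) were above 0, against 61.7% of all. Among the members with a role, the differences with the lowest p were 1.75 ± 0.30 (SE) for ASN1 and 1.37 ± 0.35 for HR4, with adjusted p of 0.906 and 1.0 in limma. HFR1 was higher in lcr by 1.74 ± 0.59 with an adjusted p of 1.0 in limma, and by 2.61 ± 0.09 with an adjusted p of 3.45e-05 when lcr 1 was left out, over 18 alternatives that ranged from 3.45e-05 to 1.0. Array lcr 1 has the wide actin difference, and without all 3 such arrays, a choice made after seeing the data, the adjusted p of HFR1 in limma was 0.00544. Both settings leave out the lcr array at 2.65 and keep those at 5.20 and 5.34. All wild-type and bdg values of HFR1 lay at 2.53 to 2.68, in the dim range where values are compressed. The small SE and p of these settings are therefore uncertain.

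**Figure D4:**
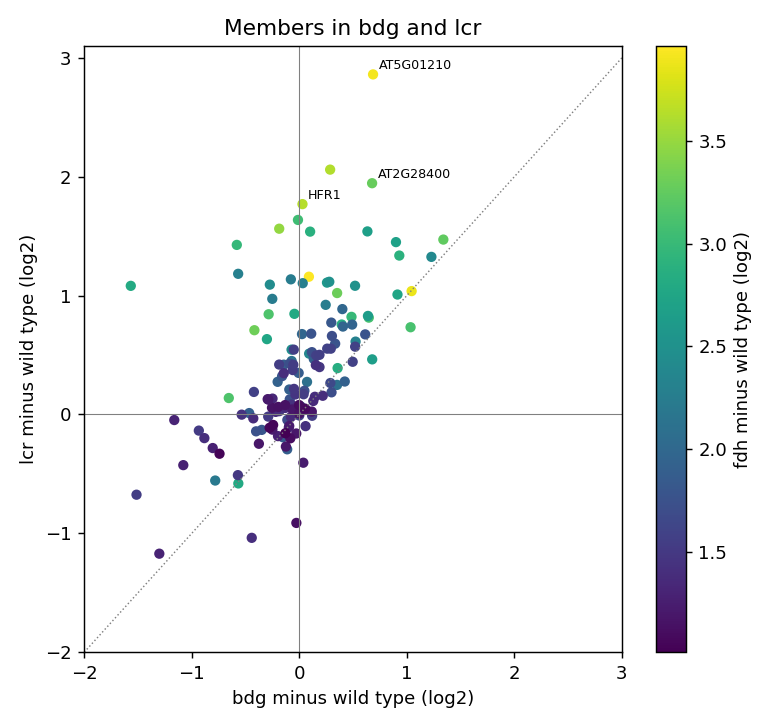
Mean of lcr minus wild type (y axis) against mean of bdg minus wild type (x axis) for the 148 members, in log2 units, coloured by fdh minus wild type. The dotted line marks equal differences, and 119 members lie above it, with AT5G01210, AT2G28400 and HFR1 farthest up among the named ones.

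Against wild type, the limit that the rule set on bdg and lcr bears on the members' values, and the counts are given beside those of all probe sets for that reason. In bdg 0 members passed the limma test, against 0.11% of all probe sets, with 9 at an unadjusted p under 0.05 (6.1%, against 4.22% of all). The median of bdg minus wild type was -0.03, against -0.01 over all probe sets. In lcr 0 members passed, against 0.4% of all, with 23 at an unadjusted p under 0.05 (15.5%, against 7.91%). The median of lcr minus wild type was 0.27, against 0.00 over all probe sets, and 111 of 148 members were above 0, against 54.0% of all.

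Rank Product, which ranks the 9 mutant to wild-type ratios and was the method of the study, called 0 members higher in bdg, against 0.514% of all probe sets, and 3 higher in lcr, against 1.03%, at a predicted share of false positives under 0.05. The named ones of the 3 were AT5G01210 (0.00371) and AT2G28400 (0.037). AT5G01210, singled out after its values were seen, had 3.42, 2.38 and 4.34 in wild type, 2.75, 4.03 and 5.43 in bdg, 5.64, 6.36 and 6.73 in lcr, and 7.57, 7.37 and 6.95 in fdh. Its lcr arrays were all above bdg and wild type, and lcr 3 came within 0.21 of fdh 3. The rule had used the comparisons of fdh, so the counts there describe the choice, and an excess over all probe sets was fixed by it. The limma test called 67 members higher in fdh than in wild type (1.53% of all probe sets were called higher), 57 higher than in bdg (0.501%) and 6 higher than in lcr (0.0528%), and Rank Product called 56 higher than in wild type (1.78%).

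The order of the genotypes below fdh was not the same for all members. The highest of the other means was that of lcr in 97 members (65.5%, against 44.0% of all probe sets), wild type in 34 and bdg in 17. In 51 members the means stood in the order wild type, bdg, lcr from low to high, as in NADP-ME2 and GSR 1, and in 34 both bdg and lcr lay at or below wild type, as in APS4, FMO, PPDK and GAMMA-VPE. In 13 members all lcr arrays were above all wild-type and bdg arrays (8.8%, against 1.48% of all probe sets), among them ASN1, HR4, AR781, AT1G80440, AT1G26420, AT1G57630 and AT5G01210. In a further 15 members lcr 2 and lcr 3 were above all wild-type and bdg arrays while lcr 1 was not (10.1%, against 2.06% of all), HFR1 being 1 of them. All bdg arrays were above all wild-type arrays in 5 members (3.4%, against 2.89% of all).

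Genes of the same hormone and stress pathways that were not members were read from lists of known genes. Most list genes had no named probe set, and the study's own table of changed genes supplied some of the names, so the lists lean towards genes that had been found changed. Of 7 measured genes of leaf senescence, 4 of them named in that way, 2 rose in fdh against wild type in limma and 5 did not pass. They were SAG13, a short-chain dehydrogenase marking senescence and defence, by 3.23 ± 0.53 (SE, adjusted p = 0.0201 in limma), and GDH2, a glutamate dehydrogenase, by 2.66 ± 0.50 (adjusted p = 0.0338 in limma). The 7 genes had a median difference from wild type of 0.47 for bdg, 1.82 for lcr and 2.49 for fdh, against -0.01, 0.00 and -0.01 over all probe sets, and 0 of them passed in lcr or bdg. SAG13 had 6.57, 5.25 and 6.70 in fdh, and bdg 1 at 5.49 was above fdh 2. Its bdg and lcr means were 1.87 and 1.61 above wild type, so both the overlap and the limit on bdg and lcr kept it from the members.

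Of 9 measured jasmonate genes, 6 named from that table, 2 rose in fdh and 7 did not pass. AOC3, an allene oxide cyclase of jasmonate synthesis, rose by 3.20 ± 0.44 (adjusted p = 0.0107 in limma) and JAZ1, a repressor of jasmonate responses, by 2.75 ± 0.56 (adjusted p = 0.0422 in limma). In lcr AOC3 rose too, by 2.87 against wild type (adjusted p = 0.0345 in limma), and the difference between fdh and lcr in AOC3 was 0.32 (adjusted p = 1.0 in limma). The 9 genes had a median difference of 0.71 for bdg, 1.98 for lcr and 2.55 for fdh. JMT, the jasmonate methyltransferase, was lower in fdh by 2.13 but missed the threshold (adjusted p = 0.0506 in limma).

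The salicylic acid list had 3 measured genes, all named from that table, of which BGL2 was a member, and 0 of the 3 passed in fdh against wild type. PR1, the pathogenesis-related protein that is the usual marker beside BGL2, had 3.96, 4.35 and 4.67 in wild type, 7.88, 4.79 and 3.79 in bdg, 3.52, 5.5 and 4.44 in lcr, and 6.41, 4.88 and 8.26 in fdh. The bdg 1 array was the second highest, so PR1 overlapped between fdh and bdg where BGL2 did not. EDS5, the transporter that exports the salicylic acid precursor from the chloroplast, had means of 3.63, 3.82, 5.17 and 6.06 in wild type, bdg, lcr and fdh.

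In the ethylene list 1 of 3 genes rose in fdh, EBF2, an F-box protein that degrades EIN3, by 2.31 ± 0.39 (adjusted p = 0.0223 in limma). In the oxidative stress list 1 of 2 rose, the zinc-finger factor ZAT12, by 3.46 ± 0.71 (adjusted p = 0.0446 in limma). The abscisic acid list had 0 of 3 genes past the threshold. The phosphate, phenylpropanoid, endoplasmic reticulum stress and circadian lists had 1 measured gene each, and none passed. In the tryptophan and camalexin list 1 of 2 rose, PAD3, which the rule set aside, by 3.32 ± 0.39 (adjusted p = 0.0054 in limma). The iron list held the member FER1 and PYE, whose fdh minus wild type was -2.56 (adjusted p = 0.426 in limma). In fatty acid elongation the single measured gene was KCS2, which the paper calls DAISY and reports as raised in all 3 mutants. It rose by 3.64 ± 0.28 in fdh (adjusted p = 0.00105 in limma), by 3.25 in bdg (adjusted p = 0.00683 in limma) and by 2.88 in lcr (adjusted p = 0.00942 in limma). The limit on bdg and lcr leaves such a gene out, so its difference from the members was set by the rule. Several of these calls did not hold under all 18 alternatives, JAZ1 losing the threshold in 13, ZAT12 in 14, GDH2 in 10, EBF2 in 6, SAG13 in 5, AOC3 in 3 and PAD3 in 1, all with the same direction, while KCS2 kept it in 18.

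Markers of other cell types were few. RCA, the Rubisco activase of mesophyll cells, was at 13.9 to 14.5 on all arrays. The single measured root and shoot meristem markers were at 1.89 to 1.93 and 2.07 to 2.14 on all arrays, near the floor of the values. Of 3 measured trichome genes 1 fell in fdh, GIS, a zinc-finger regulator of trichome initiation, by 2.41 on the log2 scale (SE 0.48, adjusted p = 0.0399 in limma), a call lost in 12 of 18 alternatives, where 0.633% of all probe sets were called lower. The other trichome genes did not pass and went in opposite directions. Their fdh minus wild type was -1.79 for TRY (adjusted p = 0.129 in limma) and 0.42 for TBR (adjusted p = 0.738 in limma). The summed level of the 3 trichome genes, on the log2 scale, was 9.04 to 10.12 in wild type, 8.87 to 9.82 in bdg, 8.69 to 9.90 in lcr and 8.77 to 9.11 in fdh. That of 3 genes of the stomatal lineage was 6.81 to 7.09 in wild type, 6.70 to 7.09 in bdg, 6.81 to 6.99 in lcr and 6.53 to 6.82 in fdh. The part of such shifts in the members' values was not tested.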

How the data were processed

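The deposited values were log2 expression values made by the authors with GCRMA, which corrects background by probe sequence, normalizes all arrays to one distribution and summarises the probes of a set. Versions and the genome build behind the probe sets are not given in the sources used here. They were used as deposited for 12 arrays of 4 genotypes, after 64 control probe sets were left out, and values near the background are compressed, so that the differences of dim members are uncertain. The members and gene lists were chosen with earlier results of these data known.

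Probe sets were named from the platform annotation, updated through RefSeq (TAIR10.1), and from pairs of probe set and locus in the study's tables: 13513 and 235 of 22746, with 503 having several genes and 8495 none. For a list gene with several probe sets the brightest was used. Differences were tested with limma 3.58.1 in R 4.3.3, with 4 genotypes in 1 model and Benjamini-Hochberg adjustment over 22746 probe sets (adjusted p under 0.05). Rank Product was rewritten in Python 3.11.15 from its description (9 ratios, 100 permutations). Scripts were tested on simulated data. The number of arrays limits the precision. Per the labels, samples were taken in 3 harvest rounds with 1 sample per genotype each, but replicate numbers are not tied to rounds. According to the paper, mutants and wild type grew next to each other in a growth chamber. The limma p-values rest on the spread between samples of the same genotype, pooled over the 4 genotypes. That spread includes any difference between harvest rounds.

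Genes named in the text were those with a locus among the 20 widest margins or 10 widest gaps, up to 4 in each role group, those nearest each threshold, and those neighbouring each other or in a list. The other described members, such as GATL2, J11, HR4, GAMMA-VPE, TRX5, GSR 1 and ASN1, were added after their values were seen. Alternatives were another normalization, a filter on low values (above 5 on at least 3 arrays), a replicate block, a variance trend, the compared genotypes alone, each array left out, and, chosen after seeing the data, the 3 arrays of wide actin difference left out. Promoter motifs were not analysed here. The authors' columns of fold changes and their p-values in the supplementary tables were not used except to pair names.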

Additional observations from a re-analysis of the deposited data

How the results depend on the processing

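The number of members moved with the margin, to 50 at 1.5 and 308 at 0.6, and with single arrays, from 128 to 445. The 445 came without fdh 3 (139 of the 148 among them) and 255 without lcr 2 (144 of the 148). In limma the count called between lcr and bdg ranged from 0 to 1, the 1 being HFR1 without lcr 1, and was 1 without the 3 arrays of wide actin difference. For bdg against wild type it ranged from 0 to 1 with single arrays left out (AT1G65500, without wild type 3). For lcr against wild type it ranged from 0 to 1, was 1 with the filter on low values (AT1G65500), 1 without the 3 arrays (HFR1) and 2 with the replicate block. For fdh against wild type it was 5 with the compared genotypes alone, 26 without the 3 arrays and 23 to 75 with single arrays left out (23 without fdh 1 or fdh 2, 31 without wild type 1, 35 without wild type 2). For fdh against bdg it was 8 with the compared genotypes alone, 14 without the 3 arrays and 5 to 75 with single arrays left out (5 without bdg 2). For fdh against lcr it was 0 with the compared genotypes alone, 3 with the replicate block, 15 with the variance trend, 0 without the 3 arrays and 2 to 40 with single arrays left out (40 without fdh 3). Rank Product gave 0 to 4 in bdg (4 without wild type 3) and 0 to 8 in lcr with single arrays left out (0 without lcr 3, 8 without wild type 3), and 1 in lcr at a share of false positives under 0.01. Leaving out arrays or genotypes leaves fewer arrays to estimate the spread, and the cause of the other changes was not tested. Calls over all probe sets were counted in the main setting only. The rule had used the comparisons of fdh, so the member counts there do not show how stable the members are. The median of the members ranged from 0.17 to 0.41 for lcr minus bdg, -0.09 to 0.08 for bdg minus wild type and 0.12 to 0.46 for lcr minus wild type with single arrays left out.

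Same-numbered arrays of different genotypes correlated in their deviations between -0.356 and 0.725, above 0.1 in 14 of 18 pairs. The correlations ran from 0.367 to 0.725 for number 3, and from -0.356 to 0.548 for numbers 1 and 2. Of 12 arrays, 7 matched their own number best. Whether a number stands for a harvest round was not tested. Since the labels do not tie numbers to rounds, the numbers were not taken as pairs in the main fit. The replicate block gave 3 calls against 6 in fdh against lcr and 2 against 0 in lcr against wild type, and moved no other count of member calls in limma by more than 1.5 times.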
